A study of Saccharomyces cerevisiae with 7 samples.

Results

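The peaks described here lie over genes for ribosomal proteins, in a ChIP-seq series that follows the histone demethylase Rph1 on yeast chromatin. They were 6 of 731 peaks in the deposited table, and the names of 7 genes were given for them by position. They were chosen from peaks already seen to fall in synthetic lactate medium, so the values they were selected on are the signals of the wild-type SL and wild-type YPL libraries, and those are given here as a description, with no test. By size of fall in SL they held ranks 1, 4, 5, 6, 7 and 8 of 731. The peaks between and after them, outside the set, were XIII from 296560 to 299369 at rank 2, X from 138693 to 140653 at rank 3, XVI from 39995 to 43601 at rank 9 and VII from 383144 to 389477 at rank 10.

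Ribosomal proteins make up the large and small subunits of the ribosome, and in budding yeast their genes are among the most heavily transcribed in growing cells. Nutrient signals, TORC1 signalling among them, lower their transcription when nutrients become poor. Rph1 is a JmjC-domain demethylase of histone H3 that acts on lysine 36 methylation, a mark that Set2 places along transcribed genes. It also carries zinc fingers that bind DNA. Ppm1 is the methyltransferase that methylates the catalytic subunit of the phosphatase PP2A.

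All cells were of the CEN.PK background, mating type MATa, with Rph1 carrying an HA tag beside the HYG marker. The groups were wild type 1 h after a change from YPL to SL (2 libraries), ppm1::kanMX, a deletion of PPM1, in YPL (2), Rph1 with the substitution S412A in YPL (1) and wild type in YPL (2). YPL holds lactate (2%), peptone (2%) and yeast extract (1%). SL is a synthetic medium with lactate, ammonium sulfate and yeast nitrogen base without amino acids. The labels of the SL libraries each give a different part of that recipe. Cells in YPL were harvested while growing exponentially, near an OD600 of 1.0, and 50 OD600 units were fixed in 1% formaldehyde for 15 min. S412A has alanine in place of a serine. It is represented by a single library, so its values have no replicate check. No untagged strain and no input library was analysed here.

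The values were deposited signals per peak, read as reads scaled to a library of 22000000. Implied library totals were 13808893 and 20499295 reads in SL, 22594042 and 34820208 in the ppm1 deletion, 28785315 in S412A and 15445453 and 19258711 in wild-type YPL. The peaks held 24.1% and 19.7% of those totals in SL, 22.6% and 20.0% in the ppm1 deletion, 18.6% in S412A and 21.7% and 22.9% in wild-type YPL. The 6 ribosomal protein gene peaks held 1475 to 16535 implied reads, a counting error of 2.60% at the lowest and 0.778% at the highest. It covers counting only, as reads copied by PCR are not separate molecules.

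Positions are those of the deposited table, and the build is sacCer2, per the submitters' processing notes. Large-subunit genes were covered by 4 peaks. These were chrXIV_499080_501544 over RPL9B, chrVII_310318_312683 over RPL28, chrXV_778118_781481 over RPL33B and chrXII_282478_284203 over RPL10. Small-subunit genes were covered by 2 peaks, chrX_73244_75460 over RPS14B and RPS22A and chrIV_578835_581117 over RPS13. The annotation of sacCer2 was not used here, so the gene under each peak was not checked in that build, and which part of a peak lies over a promoter, an exon, an intron or a UTR is not given. All 7 gene symbols were found in RefSeq's table of the R64 assembly, on the same chromosomes as the peaks. In that assembly RPS14B and RPS22A are neighbours, and RPL39, a further large-subunit gene, follows RPS22A. RPL9B, RPL33B, RPS14B and RPS22A have a duplicate partner there (RPL9A, RPL33A, RPS14A and RPS22B), whereas RPL28, RPL10 and RPS13 have none. How multiply aligning reads were treated is not stated in the labels. Peak widths were 2465 bp for RPL9B, 2366 bp for RPL28, 3364 bp for RPL33B, 1726 bp for RPL10, 2217 bp for RPS14B and RPS22A and 2283 bp for RPS13.

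All 6 peaks were strong for their length in YPL and weak in SL, with signals in between in S412A. By group mean the ppm1 deletion was close to wild type in YPL at each but RPL9B, where it was lower (9451 against 11648). At RPL9B, a large-subunit protein gene, the signal was 4362 and 4227 in SL, 10574 and 8328 in the ppm1 deletion, 6716 in S412A and 11121 and 12174 in wild-type YPL. The SL libraries were the lowest of the 7, and this was the only one of the 6 peaks at which both ppm1 libraries lay below both wild-type YPL libraries. At RPL28, in which mutations give resistance to cycloheximide, the signal was 3395 and 3409 in SL, 8675 and 6915 in the ppm1 deletion, 5436 in S412A and 7965 and 8337 in wild-type YPL. The SL libraries differed by less than their counting error, and the ppm1 libraries lay on either side of wild type.

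The widest peak, over the large-subunit gene RPL33B, had the highest signal over its whole length in every library. It held 5426 and 5068 in SL, 12600 and 10447 in the ppm1 deletion, 7734 in S412A and 11780 and 12779 in wild-type YPL. At RPL10, whose protein joins the large subunit late in its assembly, the signal was 2350 and 2233 in SL, 5469 and 4617 in the ppm1 deletion, 3646 in S412A and 4790 and 5393 in wild-type YPL. This narrowest peak had the lowest signal over its whole length in each library. In both peaks the order was SL below S412A, and S412A below each library of the ppm1 deletion and of wild-type YPL.

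The small-subunit peaks showed the same order. The peak over RPS14B, whose protein represses the splicing of its own transcript, and over RPS22A held 2943 and 2889 in SL, 6921 and 5789 in the ppm1 deletion, 4887 in S412A and 6787 and 7230 in wild-type YPL. At RPS13 the signal was 3021 and 2991 in SL, 7082 and 5705 in the ppm1 deletion, 4933 in S412A and 6425 and 6305 in wild-type YPL. The groups of SL, S412A and wild-type YPL did not overlap at either peak, while the ppm1 libraries overlapped wild type at both.

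**Figure D1:**
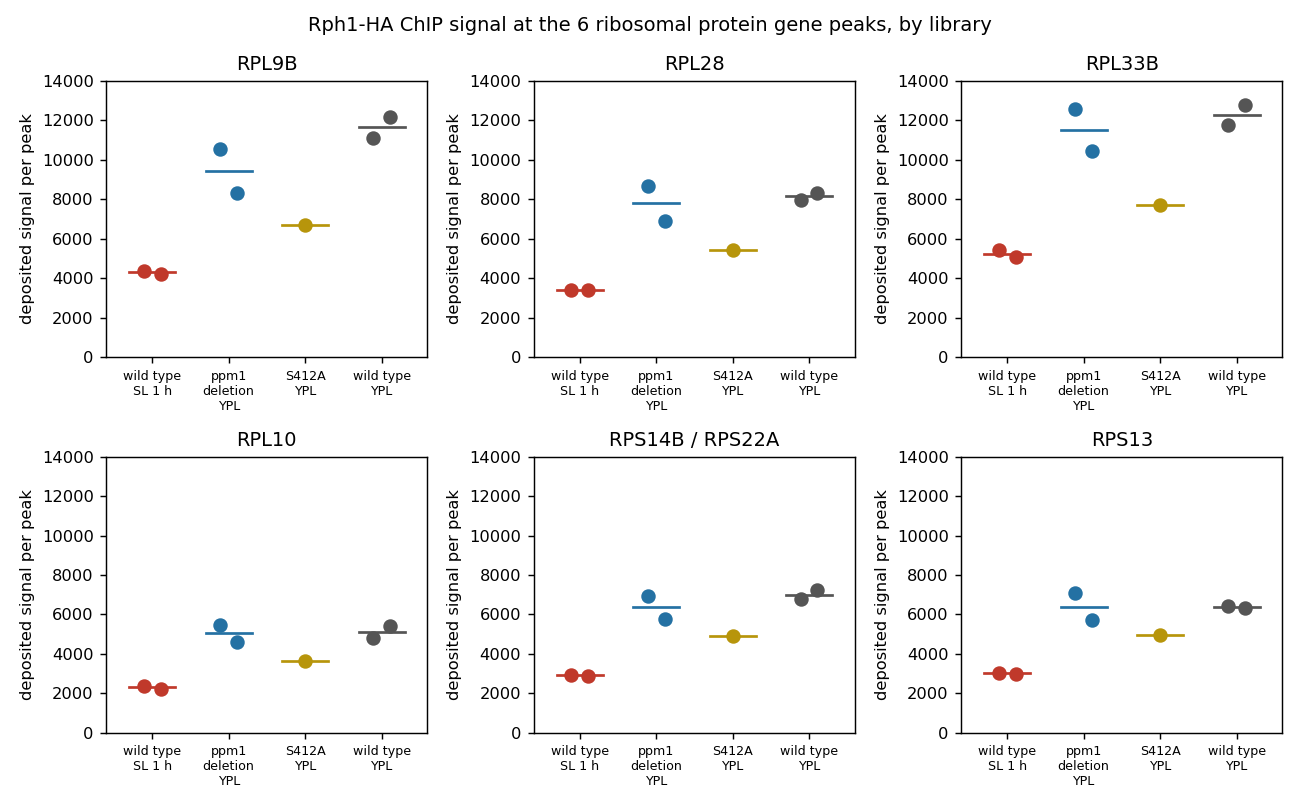
Deposited Rph1-HA signal at each of the 6 ribosomal protein gene peaks. The y axis is the signal per peak, each point is a library and each bar the mean of its group (2 libraries, or 1 for S412A). At RPL9B the SL libraries sit at 4362 and 4227 and the wild-type YPL libraries at 11121 and 12174.

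Per length, the peaks differed less from each other in SL than in wild-type YPL. Mean signal per kb in wild-type YPL was highest at RPL9B (1742 ± 38.7 in SL, 3834 ± 644 in the ppm1 deletion, 2725 in S412A and 4725 ± 302 in wild-type YPL, SD, n = 2 for all but S412A). RPL33B followed (1560 ± 75.4 in SL, 3426 ± 452 in the ppm1 deletion, 2299 in S412A and 3650 ± 210 in wild-type YPL). RPL28 was next (1438 ± 4.02 in SL, 3295 ± 526 in the ppm1 deletion, 2297 in S412A and 3445 ± 111 in wild-type YPL). This order of signal per kb, RPL9B, RPL33B and RPL28, was the same in each of the 7 libraries. The means of RPL33B and RPL28 differed by less than the SD of RPL33B in the ppm1 deletion and in wild-type YPL, and they stood at 2299 and 2297 in S412A.

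The other 3 peaks were lower and changed places between libraries. The peak over RPS14B and RPS22A had 1315 ± 17.1 per kb in SL, 2866 ± 361 in the ppm1 deletion, 2204 in S412A and 3161 ± 141 in wild-type YPL. RPL10 had 1328 ± 47.8, 2922 ± 349, 2113 and 2950 ± 247 per kb in the same 4 groups. RPS13 had 1317 ± 9.18, 2801 ± 426, 2161 and 2788 ± 37.4. The spread of the replicates overlapped among these 3 peaks in SL and in the ppm1 deletion. Between the strongest and the weakest of the 6 peaks the ratio of signal per kb was 1.34 and 1.33 in the SL libraries, 1.38 and 1.35 in the ppm1 libraries, 1.29 in S412A and 1.63 and 1.79 in the wild-type YPL libraries.

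Among all 731 peaks, the ribosomal protein gene peaks moved through most of the range of signal per kb. In SL they lay between percentiles 5.06 and 31.1 in the first library and between 1.50 and 39.0 in the second. In the ppm1 deletion they lay between 91.4 and 98.6 in the first library and between 88.9 and 98.6 in the second, and in S412A between 86.5 and 96.2. In wild-type YPL they lay between 86.0 and 99.2 and between 80.4 and 98.5. The S412A library thus had lower values at these peaks than wild-type YPL but placed them in the same part of its own distribution. The median signal per kb of the 6 peaks, divided by the median over all peaks of the same library, was 0.648 and 0.756 in SL, 1.53 and 1.41 in the ppm1 deletion, 1.26 in S412A and 1.52 and 1.54 in wild-type YPL.

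In SL the weakest of them stood near the low end of the table. The 1st percentile over all 731 peaks was 1243 and 1288 per kb in the SL libraries, and the lowest ribosomal protein gene peaks there had 1323 (RPS13) and 1294 (RPL10). Because every peak of the table has a signal, a lower limit set by background reads cannot be told apart from remaining Rph1 at these values. The summed signal of the 6 peaks made up 0.406% and 0.481% of the signal in all peaks in SL, 1.03% and 0.952% in the ppm1 deletion, 0.816% in S412A and 1.03% and 1.04% in wild-type YPL.

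**Figure D2:**
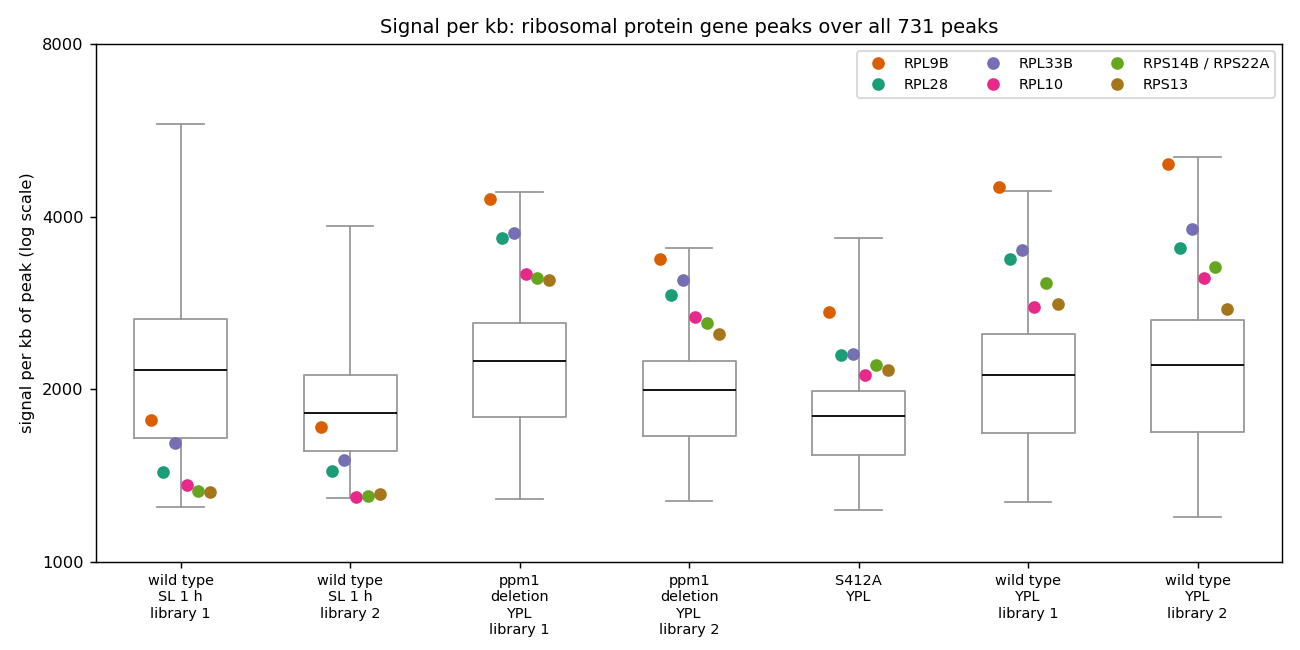
Signal per kb of peak width, on a log scale, in each library. Boxes are the quartiles and median of all 731 peaks, whiskers run from their 1st to their 99th percentile, and coloured points are the 6 ribosomal protein gene peaks, which lie between percentiles 1.50 and 39.0 in SL and between 80.4 and 99.2 in the other libraries.

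The log2 differences between wild type in SL and wild type in YPL, which chose the peaks, were close to each other. They were -1.44 at RPL9B, -1.26 at RPL28, -1.23 at RPL33B, -1.15 at RPL10, -1.26 at RPS14B and RPS22A and -1.08 at RPS13, with SE of 0.13 to 0.19. Their median was -1.24, beside a median of -0.09 over all peaks. Limma called lower 36.7% of all peaks and higher 23.3% in this comparison. The SL libraries lay below the YPL libraries at all 6 peaks and at 45.6% of all peaks. Nothing is read from those counts for the 6, since they were chosen on this contrast.

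The signal around these genes was examined through the next peak of the table on each side, 12 peaks chosen by position and not by value. The neighbours did not share a direction in SL. Of the 12, limma with Benjamini-Hochberg adjustment over all 731 peaks called 5 lower and 3 higher, shares near those of all peaks. The nearest neighbour lay left of RPL9B after a gap of 3277 bp, on XIV from 493279 to 495802, and was lower in SL, with a mean of 3586 in SL and 5894 in wild-type YPL (log2 -0.72, adjusted p = 2.5e-06). On the other side of RPL9B, after 3830 bp, the peak from 505375 to 507850 was higher (6099 in SL and 4859 in wild-type YPL, log2 0.31, adjusted p = 0.047).

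RPS13 and RPL10 also had neighbours that went opposite ways. Right of RPS13, after 6287 bp, the peak on IV from 587405 to 589404 averaged 5289 in SL and 2899 in wild-type YPL (log2 0.86, adjusted p = 1.1e-10). Left of it, after 9205 bp, the peak from 568380 to 569629 was lower (log2 -0.32, adjusted p = 0.023). For RPL10 the left neighbour was lower (log2 -0.78, adjusted p = 3.2e-08) and the right neighbour, 38491 bp away, was higher (log2 1.41, adjusted p = 3.2e-13). Both neighbours of RPL28 were lower, by log2 -0.38 on each side (adjusted p = 0.0064 left and 0.0077 right), while none next to RPL33B or next to RPS14B and RPS22A passed (log2 -0.19 to 0.23). The 12 differences ran from -0.78 to 1.41 with a median of -0.13. With all libraries 8 of the 12 passed the threshold, beside 438 of all 731 peaks. Both numbers fell when either wild-type YPL library was left out.

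**Figure D3:**
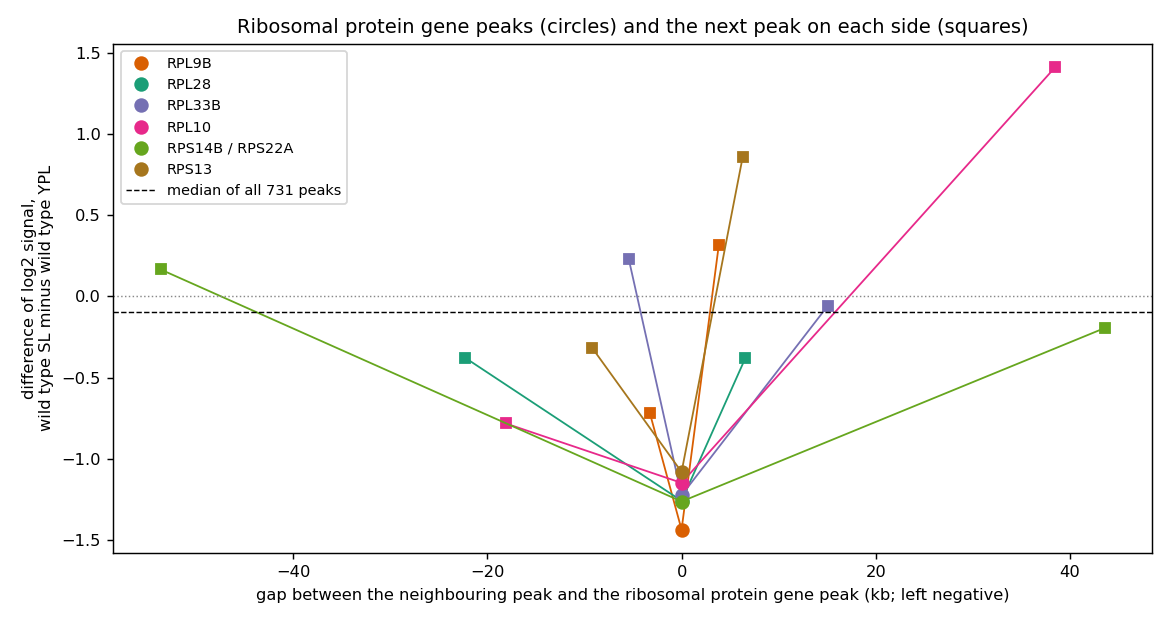
Difference of log2 signal, wild type in SL minus wild type in YPL, at the 6 ribosomal protein gene peaks (circles at 0) and at the next peak on each side (squares), against the gap in kb. Differences at the circles run from -1.44 to -1.08 and those at the squares from -0.78 to 1.41.

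By group means, the ppm1 deletion stood close to wild type in YPL at each of these peaks but RPL9B, where it was lower. Log2 differences from wild type were -0.31 at RPL9B (95% interval -0.66 to 0.04), -0.07 at RPL28 (-0.38 to 0.24), -0.10 at RPL33B (-0.47 to 0.27), -0.02 at RPL10 (-0.26 to 0.23), -0.15 at RPS14B and RPS22A (-0.43 to 0.13) and -0.00 at RPS13 (-0.28 to 0.27). Their median was -0.09, beside -0.01 over all peaks, and the signs at RPL10 and RPS13 turned with median-centred libraries (0.00 and 0.02) and with quantile normalization (0.02 and 0.05). Limma called 0 of the 6, beside 1.23% of all peaks called lower. At an unadjusted p under 0.05 there were 0 of the 6, beside 41 lower and 4 higher of all 731 peaks. Only at RPL9B did the libraries not overlap, as they did not, with ppm1 lower, at 18.9% of all peaks. At each of the 6 peaks the first ppm1 library was higher than the second, and the same held for the share of reads in peaks, 22.6% and 20.0%. The second ppm1 library also lay below both wild-type YPL libraries at each of the 6. Its median signal over all peaks, 4785, was below theirs too, at 4980 and 5159. What part such library-wide values had in the differences at the 6 peaks was not tested. The wild-type YPL libraries also chose the peaks, so a difference from them is not a separate test. A p that misses the threshold does not show that the strains bind alike, and the intervals allow falls of log2 -0.26 to -0.66.

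Set beside wild type in SL, the ppm1 deletion was higher at all 6, by log2 1.13 at RPL9B, 1.19 at RPL28, 1.13 at RPL33B, 1.13 at RPL10, 1.12 at RPS14B and RPS22A and 1.08 at RPS13. The SL libraries chose the peaks, so these are values without a test. They spanned a narrower range than the differences between SL and wild-type YPL.

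S412A lay below wild type in YPL at every one of the 6 peaks. Log2 differences were -0.79 at RPL9B, -0.58 at RPL28, -0.67 at RPL33B, -0.48 at RPL10, -0.52 at RPS14B and RPS22A and -0.37 at RPS13, with SE of 0.15 to 0.23. Signal was lower in S412A over most of the table, with a median log2 difference of -0.25 over all peaks and a single value below both wild-type values at 82.4% of peaks. Relative to that median the 6 peaks were lower by log2 -0.54 at RPL9B, -0.33 at RPL28, -0.41 at RPL33B, -0.23 at RPL10, -0.27 at RPS14B and RPS22A and -0.11 at RPS13. The share of reads in peaks was lowest in this library, at 18.6%. Its part in these differences was not tested.

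Limma called 5 of the 6 lower in S412A, all but RPS13 (adjusted p = 0.11), with adjusted p of 0.0058 at RPL9B and 0.019 to 0.027 at the other 4, beside 17.5% of all peaks. The wild-type libraries that chose the peaks enter this comparison, and nothing is read from the count. It was 3 with median-centred libraries and 3 with quantile normalization, in both cases RPL9B, RPL28 and RPL33B, and 0 with signal per kb. With single libraries left out it moved both ways. It fell without either library of wild-type YPL or of the ppm1 deletion, and rose without either library of SL. Over all peaks, 142 were called in either direction, and 0 to 283 with single libraries left out. The spread of the single S412A library is taken from the other groups.

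The comparison of S412A with the ppm1 deletion is the only one here that shares no library with the choice of the peaks. S412A was lower at all 6, below both ppm1 libraries each time, as it was at 89.6% of all peaks. Log2 differences were -0.48 at RPL9B (95% interval -0.91 to -0.05), -0.51 at RPL28 (-0.89 to -0.13), -0.57 at RPL33B (-1.02 to -0.12), -0.46 at RPL10 (-0.76 to -0.16), -0.37 at RPS14B and RPS22A (-0.71 to -0.03) and -0.37 at RPS13 (-0.70 to -0.03). Over all peaks the median was -0.24, and relative to it the 6 differences were -0.33 to -0.13. With median-centred libraries they ran from -0.35 at RPL33B to -0.15 at RPS13, and 0 of the 6 passed the threshold.

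None of the 6 passed in limma with adjustment over 731 peaks (adjusted p = 0.13 at RPL10, 0.2 at RPL28 and 0.24 at the other 4), where 0% of all peaks were called lower. All 6 had an unadjusted p under 0.05, as did 16.8% of all peaks in the same direction. The SL libraries enter only through the shared spread. Without either of them the log2 differences stayed the same, and the calls changed with that spread. The size of the differences depended on the ppm1 library used. Without the first ppm1 library they ran from -0.43 at RPL33B to -0.21 at RPS13. Without the second they ran from -0.70 at RPL33B to -0.50 at RPS14B and RPS22A. With all 7 libraries the difference thus did not pass the adjustment over all peaks. The only 2 peaks of the table that passed in this comparison were higher in S412A, by log2 0.92 or more. No fall of any size passed.

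**Figure D4:**
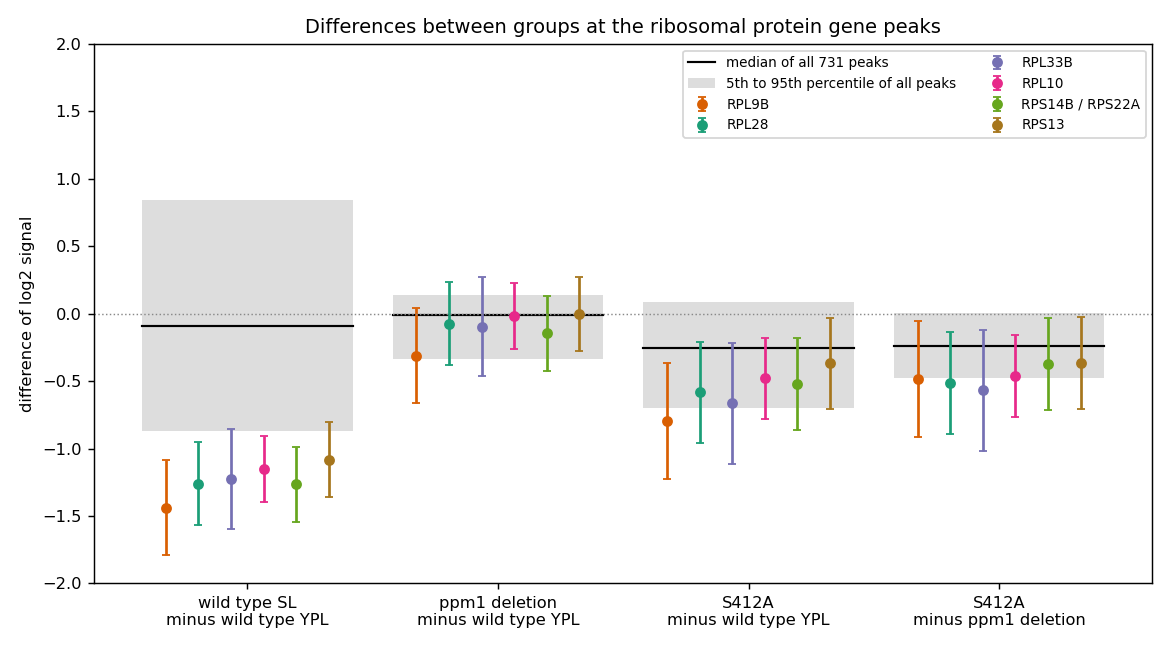
Differences of log2 signal at the 6 ribosomal protein gene peaks in 4 comparisons, with 95% intervals from limma. Black lines are medians and grey bands the 5th to 95th percentile of all 731 peaks, and the SL minus wild-type YPL comparison at the left chose the peaks. The 6 differences run from -1.44 to -1.08 there, and from -0.57 to -0.37 for S412A minus the ppm1 deletion.

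The 6 peaks varied together over the 7 libraries. Relative to its own mean, their average log2 signal was -0.75 and -0.79 in SL, 0.50 and 0.21 in the ppm1 deletion, -0.10 in S412A and 0.42 and 0.51 in wild-type YPL. Each of the 6 correlated with this profile at a Pearson r of 0.991 to 0.999, which their selection on SL and YPL and their own part in the profile raise. Of the other 725 peaks, 172 correlated with it above 0.9. The 5 most like it were XIII from 296560 to 299369 (r = 0.999), VIII from 381184 to 383532 (0.998), X from 138693 to 140653 (0.998), II from 87616 to 89673 (0.998) and V from 422893 to 425664 (0.996). In SL these had log2 differences from wild-type YPL of -1.42, -0.89, -1.41, -1.02 and -0.76 in that order, so a peak can share the pattern at a smaller size. The correlations are descriptions over 7 libraries, which all peaks share together with their depths.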

How the data were processed

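Rph1-HA ChIP DNA from 7 yeast libraries was analysed. The authors deposited a signal per peak, never negative, for 731 peaks. Reads were aligned with Bowtie2 to sacCer2, per the submitters' processing notes. The sources used here do not give the peak caller, filters or use of input. Within 0.001, 100% of values in each library were whole multiples of 22000000 divided by a whole number, taken as the library total. That reading comes from the values alone, and no count model was used.

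Log2 signal (pseudocount 0, no filter) of all 7 libraries was fitted with limma 3.58.1 in R 4.3.3 (eBayes with trend), with group as the only term and Benjamini-Hochberg adjustment over 731 peaks at a threshold of 0.05. There were 3 residual degrees of freedom, and the spread was that of the trend over peaks (median SD 0.14), so p-values do not measure the spread at a single peak. The method was tested on simulated data with independent noise and no shift of whole libraries. That test does not cover the lower signal of S412A over most of the table. Signal per kb is signal divided by peak width. Whether replicates were separate cultures is not stated in the labels, and p-values may reflect technical spread only.

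The peaks and lists were chosen with earlier results of these data known. Named are the 6 peaks and their genes, the 5 other peaks with the highest correlation to their profile, the other peaks among the 10 largest falls in SL, and the neighbouring peaks, which were added after the data were seen. Promoter motifs and a wider list of ribosomal protein genes could not be set against these peaks and were not analysed here. Alternatives covered the pseudocount, a filter on low peaks, median centring, quantile normalization, signal per kb, leaving out each library and a replicate block.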

Additional observations from a re-analysis of the deposited data

How the results depend on the processing

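The log2 differences at the 6 peaks kept their sign under every alternative run, except where the ppm1 deletion was set against wild type. There median centring gave 8.6e-04 at RPL10 and 0.0154 at RPS13, and quantile normalization 0.0188 and 0.0511, and with single libraries left out the values ran from -0.14 to 0.11 at RPL10, from -0.16 to 0.15 at RPS13, from -0.24 to 0.0902 at RPL28 and from -0.23 to 0.0384 at RPL33B. In S412A against wild type in YPL, median centring called 3 of the 6 and 124 of all peaks, and quantile normalization 3 and 158. Signal per kb, whose trend is over another mean, called 0 of the 6. The number also changed with single libraries left out. Against the ppm1 deletion it was 0 to 4 with single libraries left out, and 0 to 1 for the 12 neighbouring peaks. Of those 12, 4 were called in SL without the lowest 25% of peaks, which removes some of them, and 4 with signal per kb. Over all peaks kept, 324 and 411 were called there, against 438 as reported. Calls at the 12 also changed with single libraries left out. The median over the 6 peaks in SL ran from -1.29 to -1.19 with single libraries left out. The lowest r of the 5 peaks most like the profile was 0.991 with median centring. Over all peaks the number called was 20 with signal per kb in S412A against wild type in YPL, against 142 as reported, and in the ppm1 deletion 33 with median centring and 46 with quantile normalization, against 9.

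Replicate numbers did not pair the libraries: over peaks, replicate deviations correlated at 0.14 between SL and the ppm1 deletion, -0.33 between SL and wild-type YPL and -0.44 between the ppm1 deletion and wild-type YPL. With a replicate block, and without S412A, whose label has no number, 0 of the 6 were called in the ppm1 deletion and 8 of all peaks. With the wild-type YPL numbers crossed, an alternative chosen after seeing the data, 0 of the 6 and 44 of all peaks were called. Promoter motif shares were not run. Counting errors at the 6 peaks, from implied reads, were at most 2.60%.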
